A study of Mus musculus with 18 samples.

Results

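The comparison of the converted mouse cells (rES) with the epiblast stem cells they came from (EpiSC) covered 6 of the 18 libraries of the study, 3 of each group, taken by the library titles. The study followed mouse pluripotent cells from the primed to the naive state by RNA sequencing, with 3 libraries each of EpiSC (day 0), D3, D5, D8, rES and reference embryonic stem cells (ESC). In the labels the EpiSC libraries are primed stem cells, the rES libraries naive stem cells, the ESC libraries mESC and the libraries in between transient cells. All are described as stem cells from mouse embryo. No genotype, strain, sex, culture medium, feeder layer, passage, clone or treatment is given for any group, and the time at which rES was collected is not given either. The labels do not say whether the 3 libraries of a group came from separate cultures. The p-values below measure the spread between libraries of a group, pooled over all 18 libraries. That spread may be technical. Levels are given as CPM, the counts of a gene scaled to the size of its library, with library sizes adjusted by TMM. A gene was called when its adjusted p in edgeR's quasi-likelihood test was at most 0.05, and log2 differences are given with their standard errors (SE).

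Epiblast stem cells stand for the epiblast after implantation. They depend on FGF and Activin signals, carry high levels of the de novo DNA methyltransferases and take most of their energy from glycolysis. Embryonic stem cells stand for the epiblast before implantation. They are held by LIF, which acts through STAT3, and by a network of transcription factors that includes Nanog, Klf4, Esrrb, Tfcp2l1 and Zfp42. Moving from the primed to the naive state requires that this network is switched on again while the primed genes are shut off and DNA methylation is lowered.

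The rES libraries held 61.4, 58.4 and 63.5 M counts and the EpiSC libraries 61.9, 63.9 and 65.8 M, so the depths of both groups overlapped. Within-group correlations of the rES, EpiSC and ESC libraries ran from 0.9811 to 0.9853. Of 17545 genes tested, 12175 (69.4%) were called between rES and EpiSC, of which 5590 (31.9%) were higher and 6585 (37.5%) lower in rES. Among them 3502 (20.0%) were called and at least 2-fold higher, and 3789 (21.6%) called and at least 2-fold lower. The libraries of both groups did not overlap for 13191 genes (75.2%). With so many genes called, a list is described below by both directions and its median. The 38 lists hold 567 members with a row in the table, of which 558 passed the filter on low counts, and a gene can be in more than one list. The median log2 difference over all genes tested was -0.09. It was 0.01 with RLE scaling, under which 6327 genes were higher and 5762 lower, so which direction held the larger number of genes depended on the scaling.

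**Figure D1:**
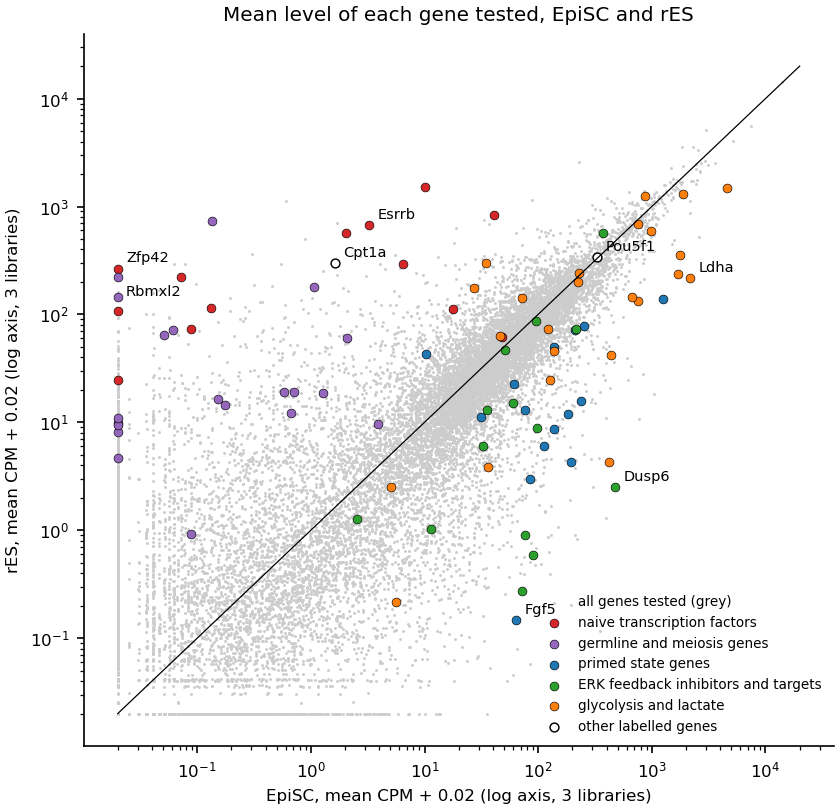
Mean CPM of each gene tested in EpiSC (x axis) and rES (y axis), 3 libraries each, both on log axes with 0.02 added; the line marks equal levels. Naive transcription factors and germline genes lie above the line at the left, primed genes, ERK feedback genes and most glycolysis genes below it at the right, and Pou5f1 on it.

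Nearly all naive transcription factors were higher in rES than in EpiSC: 12 of 13 tested were higher in rES, none was lower, and their median log2 difference was 8.13, or 7.69 with genes absent from EpiSC set to the bound that the count floor allows. Zfp42 (Rex1), a zinc finger protein used as a marker of the naive state, had no count in any EpiSC library and was at 266, 269 and 261 CPM in the rES libraries. Against a floor of 12 counts per library it was at least 1397-fold higher. The gene lies on chromosome 8 at 43295063 to 43306980 on the minus strand. Esrrb, an orphan nuclear receptor of the naive network, was at 3.56, 2.0 and 4.20 CPM in EpiSC and 677, 654 and 682 CPM in rES, a log2 difference of 7.69 ± 0.33 (SE, adjusted p = 5.88e-13). Its groups were far apart, and the rES libraries differed little among themselves.

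Nanog was not absent from the primed cells. It was at 41.7, 47.1 and 33.8 CPM in EpiSC and 825, 829 and 835 CPM in rES (log2 difference 4.34 ± 0.18, adjusted p = 2.33e-13). Klf4, one of the factors used to reprogram somatic cells, was at 5.91, 5.45 and 8.13 CPM in EpiSC and 281, 288 and 305 CPM in rES (log2 5.49 ± 0.22, adjusted p = 1.66e-13). Tfcp2l1, a target of LIF signalling, ended among the highest of the network, with 1525, 1508 and 1483 CPM in rES from 11.4, 8.65 and 10.4 CPM in EpiSC. It was also among the 6 genes with the largest gain in CPM of any gene. Nr0b1 (Dax1) and Spic had no count in EpiSC and were at least 565-fold and 130.2-fold higher in rES. Gbx2 was the member that did not pass: it was at 47.4, 41.3 and 54.1 CPM in EpiSC and 60.2, 61.3 and 61.8 CPM in rES (log2 0.36 ± 0.25, adjusted p = 0.212). With the 2 groups fitted alone all 13 naive factors were called higher.

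The naive state markers moved with the factors, with 14 of 14 tested higher in rES and a median log2 difference of 8.94 (7.61 with bounds). Cpt1a, described below with the carnitine genes, is a member of this list and so is counted here too. Dppa5a, an RNA-binding protein of early embryos, rose from 0.273, 0.555 and 0.919 CPM to 1113, 1143 and 1099.6 CPM. Tdh, the threonine dehydrogenase that mouse embryonic stem cells use to feed one-carbon metabolism, rose from 1.36, 1.89 and 1.78 CPM to 724, 700.5 and 704 CPM. Both genes went from low levels to being abundant, with no overlap between groups. Dppa3 (Stella), a maternal factor that protects against DNA methylation and marks germ cells, was at 0, 0 and 0.0623 CPM in EpiSC and 76.0, 74.7 and 79.2 CPM in rES. Dnmt3l ended lowest of these markers, at 5.66, 5.26 and 6.94 CPM.

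Factors that both states share divided: 4 of 12 rose, 3 fell and 5 did not pass, or 7 rose and 3 fell with the 2 groups fitted alone. Pou5f1 (Oct4), the central pluripotency factor, was at 335, 266 and 392 CPM in EpiSC and 337, 331 and 347 CPM in rES, so the rES libraries fell inside the EpiSC range (log2 0.03 ± 0.35, adjusted p = 0.957). It was lower in between, in values given without a test: its mean was 27.6 ± 10.8 CPM (SD, n = 3) at D3, 7.01 ± 4.64 at D5 and 93.2 ± 45.8 at D8. Sox2, its partner on DNA, was also low in between, with 8.43 ± 2.87 CPM at D5, but ended above its start, at 577, 572 and 567 CPM against 171, 175 and 220.4 CPM (log2 1.60 ± 0.27, adjusted p = 4.45e-05). Lin28a, an RNA-binding protein that blocks let-7 maturation, fell from 731, 776 and 789 CPM to 10.2, 10.3 and 11.6 CPM. Lin28b fell by 4.51 ± 0.17 and Utf1, a chromatin protein of pluripotent cells, by 3.94 ± 0.19 on the log2 scale. Zscan10, Trim71 and Rif1 did not pass, with log2 differences of 0.00, 0.21 and 0.18.

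**Figure D2:**
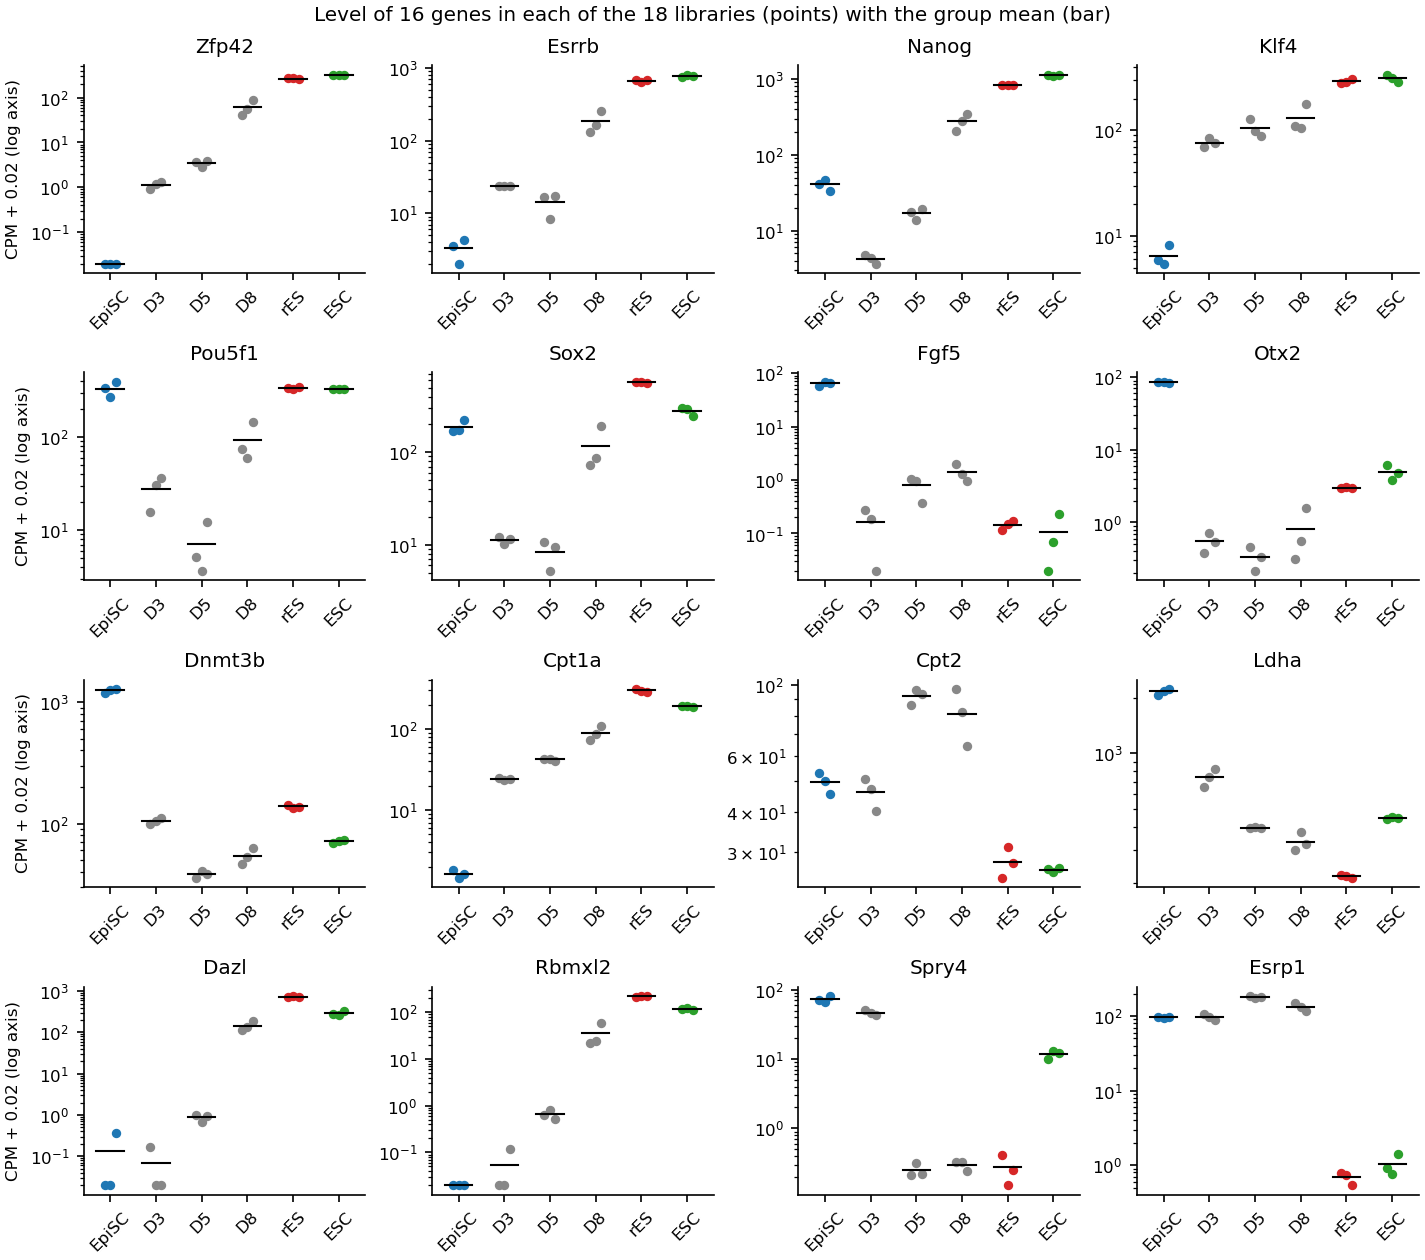
CPM of 16 genes in each of the 18 libraries (points, log axes with 0.02 added) with group means (bars); EpiSC in blue, rES in red, ESC in green. Pou5f1 and Sox2 are lowest at D5, Zfp42 and Dazl climb until rES, Fgf5 and Spry4 end near the floor in rES, and Esrp1 stays high through D8 and is below 1 CPM in rES.

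Primed state genes went the other way, with 14 of 15 lower in rES and a median log2 difference of -3.17. Fgf5, the growth factor of the epiblast after implantation, was at 58.8, 68.9 and 65.0 CPM in EpiSC and 0.0953, 0.132 and 0.153 CPM in rES (log2 -8.96 ± 0.58, adjusted p = 1.76e-10). The gene lies on chromosome 5 at 98254184 to 98277030. The rES values are below the floor of 0.191 CPM that 12 counts give. Otx2, which directs the exit from the naive state, fell from 84.9, 86.3 and 84.4 CPM to 2.94, 3.04 and 3.0 CPM. Pou3f1 (Oct6), a POU factor of the primed epiblast, fell from 178, 173 and 234 CPM to 4.75, 4.02 and 4.10 CPM. Other members kept a sizeable level. Zic2, a zinc finger factor of primed enhancers, was still at 77.3, 75.9 and 80.3 CPM in rES after 249, 253 and 263 CPM in EpiSC. Sall3 was the one member that rose, from 10.4, 8.81 and 11.7 CPM to 43.1, 43.3 and 43.5 CPM.

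Among genes with at least 10 CPM in a group, the 12 with the largest log2 differences below EpiSC were Cnn1, Klhl4, Npcd, Gpm6a, Cysltr1, Srp54c, Kcnh8, Slc39a8, Enpp2, Calcr, Gpr37 and Kctd12b. Klhl4 was at 299, 279.7 and 284 CPM in EpiSC and 0.0636, 0 and 0 CPM in rES. Slc39a8, a zinc and manganese transporter, fell from 356, 364 and 334 CPM to 0.159, 0.132 and 0 CPM. Both genes were abundant in every EpiSC library and under the floor in every rES library. Enpp2, the enzyme autotaxin that makes lysophosphatidic acid, fell from 57.7, 54.1 and 46.7 CPM to 0, 0 and 0.0612 CPM. Cnn1, a calponin of smooth muscle, had no count in rES and was at least 186-fold lower. For Npcd and Srp54c the EpiSC libraries disagreed, with 24, 13.4 and 4.03 CPM and 14.5, 15 and 8.44 CPM. Npcd overlaps another gene and Srp54c has near-identical copies, so their counts are uncertain.

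By fitted log2 difference, the 12 genes furthest above EpiSC were Zfp42, Rbmxl2, Stra8, Sohlh2, Nr0b1, Aurkc, Dmgdh, Trpm1, Lipo3, Bhmt, Casr and Hal. None had a count in any EpiSC library. The log2 of such genes rests on a small constant added in the fit, so this rule tends to rank them first. Their order is not an order of the folds that the counts allow. Stra8, which opens meiosis in response to retinoic acid, was at 152, 161 and 176 CPM in rES, at least 859-fold higher. Aurkc, the aurora kinase of oocytes and spermatocytes, reached 91.4, 89.3 and 95.4 CPM. Dmgdh and Bhmt, enzymes that handle methyl groups from choline and betaine, reached 70.8, 68.1 and 72.8 CPM and 46.2, 48.0 and 49.5 CPM. Hal, which breaks down histidine, was at 46.4, 46.1 and 43.7 CPM.

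The germline and meiosis list was uniform: 20 of 20 genes tested were higher in rES and none was lower, with a median log2 difference of 9.04 that becomes 5.66 when the 7 genes without counts in EpiSC are set to their bounds. Its summed level was 10.5 to 10.9 CPM in the EpiSC libraries and 1629.7 to 1641 CPM in the rES libraries. Dazl, an RNA-binding protein of germ cells on chromosome 17 at 50279395 to 50293636, made up the largest part of it, with 0, 0 and 0.343 CPM in EpiSC and 720.4, 759 and 738 CPM in rES (log2 12.62 ± 0.48, adjusted p = 1.18e-13). Its EpiSC mean was under the floor of 0.190 CPM, so the size of this log2 difference is uncertain beyond its SE. No bound was set for it, because 1 EpiSC library had counts. Dazl was still at 0.858 ± 0.181 CPM (SD, n = 3) at D5 and reached 145 ± 36.0 CPM at D8. Rbmxl2, a splicing factor of meiotic spermatocytes, had no count in EpiSC and was at 213, 223 and 223 CPM in rES. Sohlh2, a transcription factor of spermatogonia and oocytes, reached 152, 144 and 140.3 CPM. Tex19.1, which restrains retrotransposons in germ cells, rose from 0.851, 0.871 and 1.40 CPM to 185, 173 and 183 CPM. The synaptonemal complex genes rose less. Sycp3 went from 0.803, 0.491 and 0.654 CPM to 11.9, 12.9 and 12.2 CPM and Sycp1 from 1.77, 1.08 and 0.981 CPM to 17.8, 19.9 and 18.2 CPM. Rhox5 was uneven within rES, at 25.6, 5.97 and 25.1 CPM, and Tdrd1 stayed low, at 0.556, 1.07 and 1.10 CPM.

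Because these genes rose together, the sequence before their start sites was read for 7 motifs. Promoters of germline genes are known to hold the E-box CACGTG, bound by MAX and its partners, and the E2F6 motif GGCGGGAA; in other cells complexes with MAX and E2F6 keep such genes silent. RefSeq promoter entries on build GRCm38.p6 matched 19 of the 20 genes. In the 250 bases before the start, CACGTG was found for 12 of 19 genes (63.2%), against 6.86% of all 27025 genes with an entry. GGCGGGAA was found for 2 of 19 genes (10.5%) against 2.13% of all genes. CCACACCC, the KLF motif, was found for 2 of 19 (10.5%) against 3.68% of all genes. TCAAGGTCA (ESRRB), ATGCAAAT (the POU octamer), TGACGTCA (the CRE) and TTCCNGGAA (STAT3) were found in none of the 19, against 0.422%, 1.81%, 1.77% and 1.09% of all genes. Both strands were searched for exact matches; CACGTG and TGACGTCA read the same on both strands, and none of these 7 motifs holds another. A match is a description of the sequence, and no binding was measured.

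The stretches below show the matches of 7 of the 12 genes, chosen to cover the highest and some of the lowest levels in rES, with CACGTG and GGCGGGAA in capitals and the gene's strand read 5′ to 3′.
Rbmxl2: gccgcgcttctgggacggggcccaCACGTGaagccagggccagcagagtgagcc
Stk31: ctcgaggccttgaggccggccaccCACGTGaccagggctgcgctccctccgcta
Hormad1: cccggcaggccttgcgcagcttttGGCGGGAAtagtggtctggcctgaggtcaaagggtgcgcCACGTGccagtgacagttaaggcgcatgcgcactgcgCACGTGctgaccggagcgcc
Sycp3: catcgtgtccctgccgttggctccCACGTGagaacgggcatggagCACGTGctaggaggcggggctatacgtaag
Taf7l: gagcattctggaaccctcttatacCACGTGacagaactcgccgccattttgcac
Mael: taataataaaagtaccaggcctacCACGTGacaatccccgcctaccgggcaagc
Mov10l1: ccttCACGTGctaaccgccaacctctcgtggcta
On GRCm38.p6 these lie at chr7:107209200-107209253 (+), chr6:49395460-49395513 (+), chr3:95559557-95559676 (+), chr10:88459499-88459573 (+), chrX:134476510-134476563 (-), chr1:166238938-166238991 (-) and chr15:88982744-88982777 (+), in that order, all upstream of the start of the RefSeq entry. The stretch of Sycp3 runs past its GENCODE start, at 88459569.

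Hormad1, which marks unsynapsed chromosome axes in meiosis, held both motifs, with CACGTG starting 57 and 20 bases before the start and GGCGGGAA 96 bases before it. Its level went from 0, 0 and 0.0934 CPM in EpiSC to 61.4, 69.5 and 63.5 CPM in rES. Sycp3 held CACGTG at 64 and 43 bases before the start. Stk31, a kinase of spermatogonia, with CACGTG at 55 bases, went from 0, 0 and 0.125 CPM to 74.5, 72.6 and 65.8 CPM. Mael and Mov10l1, which act in the piRNA pathway, and Taf7l, a testis form of a TFIID subunit, had no count in EpiSC and were at 9.28, 7.69 and 7.49 CPM, 10.7, 9.76 and 9.17 CPM, and 11.3, 9.76 and 11.9 CPM in rES. In Taf7l CACGTG lay 49 bases before the start, and in Rbmxl2, Mael and Mov10l1 further off, at 221, 223 and 246 bases. The levels of the genes shown differed widely in rES, which follows from how they were chosen.

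Of 10 naive factor genes with an entry, the POU octamer and the KLF motif were each found for 1 (10%), against 1.81% and 3.68% of all genes. Both were in the promoter of Zfp42. It is shown because none of the named genes without a count in EpiSC had a larger fold bound. Genes with a count in any EpiSC library, such as Dazl, were given no bound.
Zfp42: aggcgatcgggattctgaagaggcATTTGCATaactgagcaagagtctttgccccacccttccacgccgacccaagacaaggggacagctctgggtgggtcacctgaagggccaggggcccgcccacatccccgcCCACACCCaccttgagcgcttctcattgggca
It lies at chr8:43307053-43307219 on the minus strand of GRCm38.p6. The capitals mark the octamer, read here as its complement and starting 186 bases before the start, and CCACACCC, starting 75 bases before it. The octamer is the recognition sequence of POU factors such as Pou5f1, and CCACACCC that of KLF factors such as Klf4.

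Genes of the 2-cell-like state, a rare state of embryonic stem cells that resembles the embryo at genome activation, also rose: 7 of 8 tested were higher and none lower. Their levels stayed small. Zscan4c, which protects telomeres, had no count in EpiSC and was at 5.42, 5.82 and 6.05 CPM in rES, and the summed level of the list in rES was 23.1 to 26.3 CPM. The Zscan4 genes are near-identical copies and their single counts are uncertain.

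Signalling genes changed in a way that differed by pathway. In the LIF pathway the receptor subunits and the transducer rose: Lifr from 14.6, 11.9 and 12.8 CPM to 42.3, 43.8 and 47.9 CPM, and Il6st (gp130) from 44.5, 38.3 and 46.5 CPM to 194, 202 and 205 CPM. Stat3 rose from 25.3, 26.8 and 27.5 CPM to 131, 129 and 129.9 CPM (log2 2.29 ± 0.07, adjusted p = 1.27e-14). Its feedback inhibitor Socs3 rose by 2.21 ± 0.14 on the log2 scale, and Bcl3, a cofactor of NF-kappaB, by 8.55 ± 0.27, from at most 0.405 CPM to at least 90.4 CPM. Jak1 did not pass, with a log2 difference of 0.14 ± 0.07, and Jak2 fell by 0.91 ± 0.11. Over the whole list 7 of 14 genes rose and 4 fell, counting Osmr, the oncostatin M receptor. Osmr had no count in EpiSC and was at 0.175, 0 and 0 CPM in rES, under the floor, and its call was lost without rES library 1 (adjusted p = 1.0).

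FGF and ERK genes fell. Of the FGF ligands and receptors 5 of 8 were lower and 1 higher, and of the ERK feedback inhibitors and targets 11 of 14 were lower and 1 higher, with a median log2 difference of -2.22. Dusp6, the phosphatase that switches off ERK, was at 515, 459 and 456 CPM in EpiSC and 2.67, 2.0 and 2.83 CPM in rES (log2 -7.57 ± 0.19, adjusted p = 6.59e-16). Spry4, an inhibitor of receptor tyrosine kinase signalling, fell from 70.6, 65.7 and 80.7 CPM to 0.397, 0.132 and 0.230 CPM (log2 -8.14 ± 0.23, adjusted p = 2.20e-15). Egr1, an immediate early gene, fell from 85.9, 81.7 and 102 CPM to 0.175, 0.990 and 0.536 CPM. Spry2 and Spred2 did not pass, at log2 differences of -0.13 ± 0.12 and -0.13 ± 0.21. The ligand Fgf4, a product of naive cells, rose from 46.1, 49.4 and 50.3 CPM to 287, 268 and 266 CPM, and Etv5, an ETS factor, rose from 374, 361 and 387 CPM to 594, 559 and 570.3 CPM.

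In the Nodal and Activin pathway 6 of 14 genes rose and 7 fell, and its ligands and antagonists were on both sides. Gdf3, a ligand of the pathway, rose from 1.01, 0.824 and 1.18 CPM to 137, 144 and 144 CPM and Nodal from 20.6, 22.3 and 28.0 CPM to 75.1, 71.7 and 74.2 CPM. Lefty1, a Nodal antagonist, fell by 1.71 ± 0.27, whereas Lefty2 rose by 2.99 ± 0.31 on the log2 scale. Fst, which binds and blocks Activin, fell by 1.65 ± 0.23. Among the BMP genes 8 of 16 rose and 5 fell: the target genes Id1, Id2 and Id3 were lower, with log2 differences of -1.59, -3.09 and -0.98, and the ligand Bmp7 rose by 2.78 ± 0.14.

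Of the WNT genes 7 of 16 rose and 6 fell. Targets of the pathway were among those that rose. Axin2, its feedback inhibitor, went from 7.51, 6.24 and 9.13 CPM to 98.3, 92.6 and 96.6 CPM, Sp5 from 0.626, 0.222 and 0.872 CPM to 113, 121 and 132 CPM, and Notum, a secreted inhibitor of WNT ligands, from 0.353, 0.460 and 0.529 CPM to 62.1, 54.0 and 61.2 CPM. Lef1, one of the TCF and LEF factors, fell instead, from 116, 112 and 108 CPM to 28.3, 26.6 and 28.7 CPM, and the receptor Fzd7 fell by 2.43 ± 0.10 on the log2 scale. The repressor Tcf7l1 rose by 0.94 ± 0.17.

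The DNA methylation machinery was recast, with 7 of 12 genes higher and 5 lower. Dnmt3b, the main de novo methyltransferase of primed cells, fell from 1196, 1263 and 1284 CPM to 143, 134 and 138 CPM (log2 -3.17 ± 0.09, adjusted p = 4.62e-15), and Dnmt3a by 1.56 ± 0.09. Tet1, which oxidises methylcytosine, rose from 119, 109 and 125 CPM to 497, 539 and 556 CPM, and Tet2 from 7.40, 5.67 and 7.21 CPM to 41.2, 51.4 and 56.0 CPM, whereas Tet3 fell by 1.45 ± 0.10. The maintenance genes Dnmt1 and Uhrf1 rose by 0.42 ± 0.09 and 0.86 ± 0.13. De novo and maintenance enzymes thus went opposite ways at the level of RNA; methylation itself was not measured here.

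**Figure D3:**
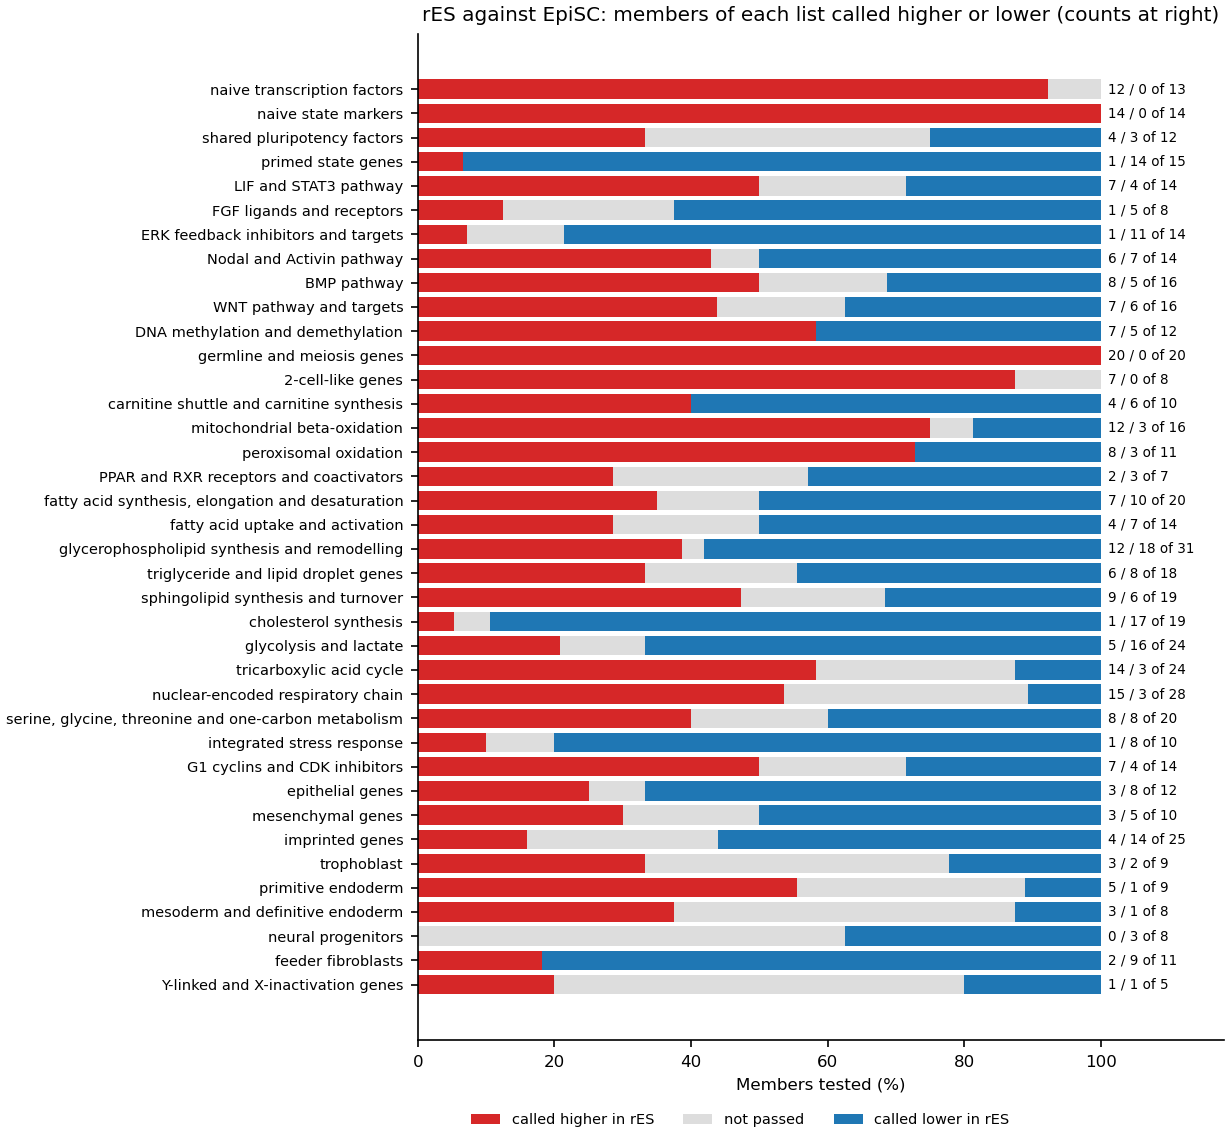
Share of the members tested of each of 38 gene lists that were called higher (red) or lower (blue) in rES than in EpiSC or did not pass (grey), with the counts higher / lower of tested at the right. Over all genes 31.9% were higher and 37.5% lower. The naive and germline lists are red throughout or nearly so, and the primed, ERK, cholesterol and stress response lists are mostly blue.

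Cpt1a, the enzyme that loads long-chain fatty acids onto carnitine at the outer mitochondrial membrane and sets the pace of their oxidation, had the fifth smallest adjusted p of all genes. It lies on chromosome 19 at 3322334 to 3385733 on the plus strand (GENCODE vM21, GRCm38). It was at 1.80, 1.43 and 1.62 CPM in EpiSC and 313, 296 and 290.5 CPM in rES, without overlap (log2 7.54 ± 0.14, adjusted p = 5.46e-17). Unlike Pou5f1 it had a higher mean at each later time, with 24.3 ± 0.799 CPM (SD, n = 3) at D3, 42.2 ± 1.44 at D5 and 90.2 ± 18.6 at D8. The paralogs went down. Cpt1c, the form of brain and endoplasmic reticulum, fell from 30.2, 33.1 and 33.3 CPM to 20.0, 18.1 and 17.4 CPM (log2 -0.80 ± 0.10, adjusted p = 1.33e-06). Cpt1b, the muscle form, was at 0.0642, 0.158 and 2.26 CPM in EpiSC and at most 0.0459 CPM in rES. Its call rests on the third EpiSC library and was lost without it (adjusted p = 0.0623). Per kilobase of exon the mean levels in EpiSC were 0.211 CPM per kb for Cpt1a, 0.245 for Cpt1b and 5.75 for Cpt1c, and in rES 39.2, 0.00454 and 3.30, so the most abundant of the 3 by this measure was Cpt1c in EpiSC and Cpt1a in rES.

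The other steps of the carnitine shuttle did not rise as one: 4 of 10 genes were higher and 6 lower. Slc25a20, the carrier that moves acylcarnitine across the inner membrane, rose from 8.43, 9.44 and 11.1 CPM to 54.1, 56.4 and 58.7 CPM (log2 2.55 ± 0.12, adjusted p = 1.32e-12). Cpt2, which takes the fatty acid off carnitine inside the mitochondrion, fell from 53.0, 50.1 and 45.4 CPM to 24.9, 31.1 and 27.7 CPM (log2 -0.83 ± 0.12, adjusted p = 1.13e-05). Its mean had been higher during the conversion, at 92.0 ± 5.13 CPM (SD, n = 3) at D5. Aldh9a1 and Tmlhe, which act in carnitine synthesis, were lower, with log2 differences of -2.48 ± 0.08 and -1.08 ± 0.23, as was the carnitine importer Slc22a5 (log2 -0.63 ± 0.12).

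Mitochondrial beta-oxidation rose with moderate differences. Of 16 genes 12 were higher and 3 lower, with a median log2 difference of 0.87. Acadm, the medium-chain acyl-CoA dehydrogenase, went from 54.0, 53.2 and 57.2 CPM to 131, 124 and 132 CPM, Hadh from 108, 114 and 97.3 CPM to 280.5, 269 and 266 CPM, and Acaa2, the thiolase, from 13.5, 12.6 and 10.4 CPM to 40.4, 37.1 and 35.9 CPM. Each of these was higher in every rES library than in any EpiSC library. Acadl, the long-chain dehydrogenase, went against the list, from 14.0, 13.9 and 12.8 CPM to 1.51, 1.09 and 1.91 CPM (log2 -3.17 ± 0.22, adjusted p = 4.40e-10), and Echs1 and Decr1 were also lower. In peroxisomes 8 of 11 oxidation genes were higher and 3 lower (median 1.14). Ehhadh, the bifunctional enzyme, rose by 2.23 ± 0.16 and Scp2, the sterol carrier with thiolase activity, by 1.61 ± 0.10, and the transporter Abcd2 fell from 5.27, 5.64 and 2.58 CPM to at most 0.0612 CPM.

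Of the PPAR and RXR receptors and their coactivators, which control these genes in other tissues, 2 of 7 tested were higher in rES, 3 were lower and the median log2 difference was -0.22, or 0.00 with the gene without counts in rES set to its bound. With the 2 groups fitted alone or without EpiSC library 3 only 1 was lower, and without EpiSC library 1 only 1 was higher. With RLE scaling or DESeq2, 2 were lower. Of the lower genes, Ppard lost its call with RLE scaling (log2 -0.07, adjusted p = 0.500) and with DESeq2. Pparg had no count in rES and an EpiSC mean under the floor of 0.190 CPM. Its call was lost with counts divided by 4 or without EpiSC library 3. Ppara, the main activator of fatty acid oxidation in liver, was at 0.177, 0 and 0.296 CPM in EpiSC and 0.461, 0.346 and 0.153 CPM in rES, about the floor, and did not pass (adjusted p = 0.252). Rxrg fell from 7.11, 8.13 and 8.14 CPM to at most 0.0612 CPM, under the floor (log2 -7.65 ± 0.72). The higher genes were Rxra, by 0.30 ± 0.10, and the coactivator Ppargc1b, by 0.60 ± 0.13 on the log2 scale.

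**Figure D4:**
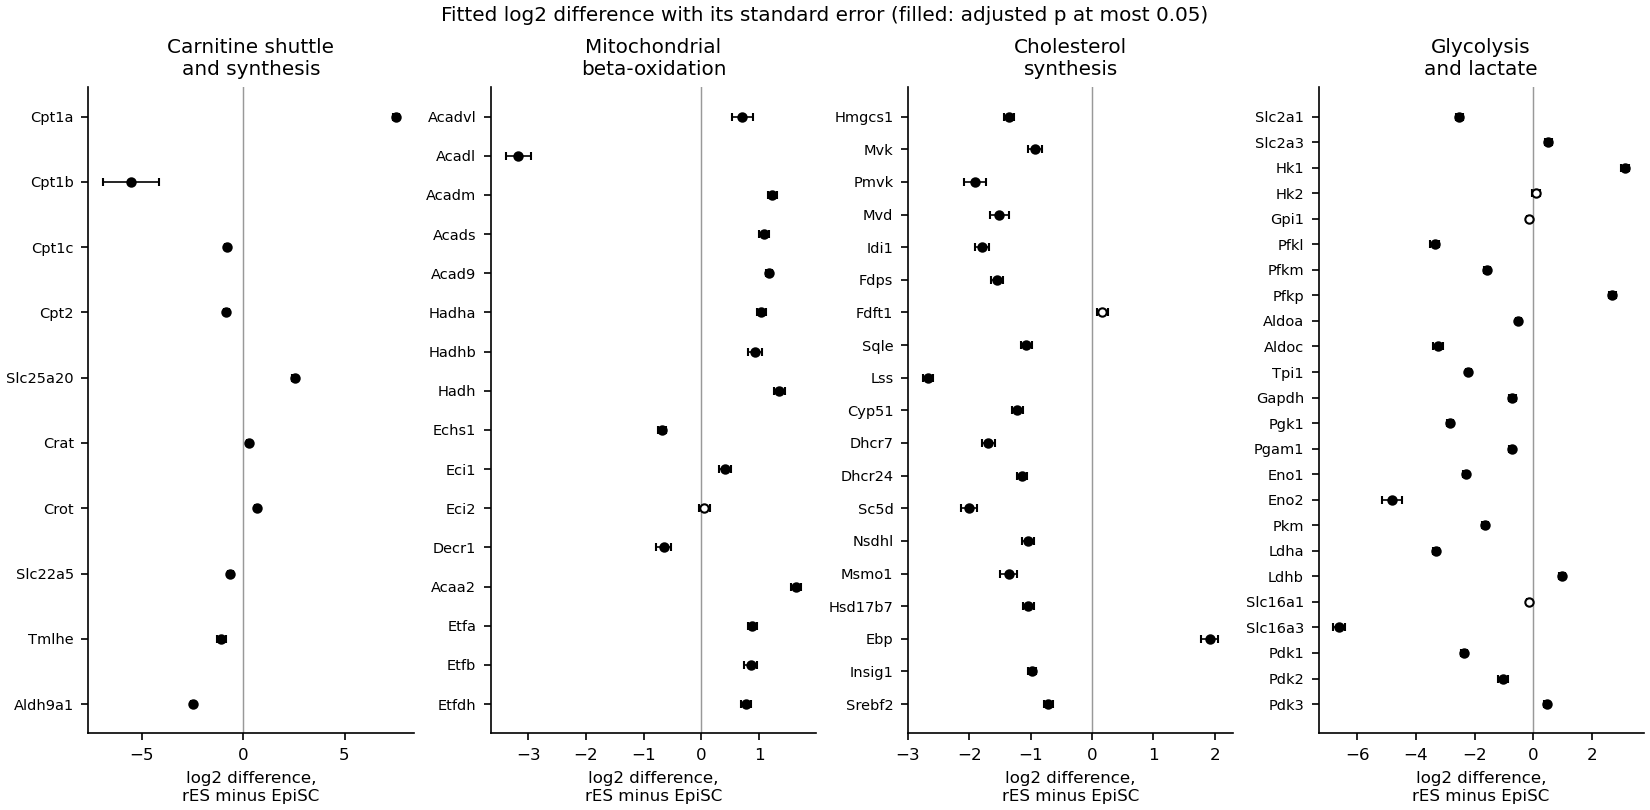
Fitted log2 difference, rES minus EpiSC (x axis), with its SE for the genes of 4 metabolic lists; filled points have an adjusted p of at most 0.05 and the vertical line marks no difference. Cpt1a stands at 7.54 and Cpt2 at -0.83, 12 of 16 beta-oxidation genes lie above 0, and most cholesterol and glycolysis genes are below 0.

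Genes that handle fatty acids before oxidation were split. Of those for uptake and activation 4 of 14 rose and 7 fell. Acsl4, which activates arachidonic acid and other polyunsaturated fatty acids, fell from 404, 393 and 389 CPM to 33.1, 37.2 and 36.0 CPM, and Fabp5, a fatty acid binding protein, from 142, 161 and 188 CPM to 14.1, 14.1 and 16.4 CPM. Slc27a4, a fatty acid transport protein, and Fabp3 rose by 1.62 ± 0.10 and 2.82 ± 0.26. In fatty acid synthesis 7 of 20 rose and 10 fell. Fasn, the synthase itself, did not pass (log2 -0.16 ± 0.08, adjusted p = 0.0895). The 2 acetyl-CoA carboxylases moved apart: Acaca, which makes malonyl-CoA for synthesis, fell from 293, 288 and 322 CPM to 147, 147 and 145 CPM, and Acacb, whose malonyl-CoA inhibits CPT1 at mitochondria, rose from 19.2, 18 and 18.7 CPM to 84.1, 81.2 and 83.0 CPM. Acacb thus rose together with Cpt1a.

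Membrane lipid genes were also divided. In glycerophospholipid synthesis and remodelling 12 of 31 rose and 18 fell. Ptdss1, which makes phosphatidylserine, rose from 40.6, 42.3 and 45 CPM to 116, 111 and 116 CPM, and Agpat2 by 1.82 ± 0.10 on the log2 scale. Lpcat4, an acyltransferase of phospholipid remodelling, fell by 2.43 ± 0.15, and Chkb, a choline kinase, by 2.10 ± 0.16. In sphingolipid metabolism 9 of 19 rose and 6 fell, among them Sgpl1, the lyase that ends sphingosine phosphate, up from 74.5, 66.3 and 71.8 CPM to 221, 209 and 198 CPM, and the ceramide synthase Cers4, down from 63.4, 60.8 and 65.5 CPM to 11.8, 11.9 and 14.2 CPM. For triglycerides and lipid droplets 6 of 18 rose and 8 fell: Dgat2, which makes triglyceride, fell by 2.11 ± 0.12 and the droplet protein Plin2 rose by 1.01 ± 0.07.

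Cholesterol synthesis fell almost as a block, with 17 of 19 genes lower, 1 higher and a median log2 difference of -1.22. Hmgcs1, an early enzyme of the pathway, went from 969, 1125 and 909 CPM to 399.7, 381 and 391 CPM. Lss, which closes the sterol rings, fell most, from 277, 327 and 309 CPM to 49.3, 45.7 and 47.7 CPM (log2 -2.68 ± 0.08, adjusted p = 3.09e-15). Srebf2, the transcription factor of the pathway, fell by 0.71 ± 0.07. Exceptions were Ebp, the sterol isomerase, which rose from 14.4, 18.5 and 17.3 CPM to 62.8, 64.4 and 62.2 CPM, and Fdft1, which did not pass (adjusted p = 0.112). With RLE scaling, with DESeq2, with the 2 groups fitted alone or without EpiSC library 2, 2 of these genes were called higher.

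Glycolysis lost many of the most abundant transcripts of the primed cells. Of 24 genes 16 were lower, 5 higher and 3 did not pass (median -1.31), and Pkm, Ldha, Pgk1 and Eno1 were among the 6 genes with the largest loss in CPM of any gene. Ldha, which turns pyruvate into lactate, went from 2071, 2184 and 2231 CPM to 220.4, 217 and 212 CPM (log2 -3.32 ± 0.09, adjusted p = 9.43e-16). Slc16a3, the lactate exporter, fell from 375, 388 and 492 CPM to 3.29, 3.68 and 5.83 CPM, and the glucose transporter Slc2a1 from 776, 718 and 792 CPM to 142, 128 and 129 CPM. Paralogs did not move together at several steps. Pfkl fell from 401, 397 and 503 CPM to 44.5, 41.8 and 40.6 CPM while Pfkp, another phosphofructokinase, rose from 27.5, 26.4 and 27.9 CPM to 184, 168 and 171 CPM. Hk1 rose from 32.7, 31.2 and 39.5 CPM to 304, 301 and 295 CPM, and Hk2 did not pass, at 209, 213 and 263 CPM in EpiSC and 253, 239 and 232 CPM in rES. Ldhb, the lactate dehydrogenase of oxidative tissues, rose by 0.98 ± 0.11, and Slc2a3 by 0.51 ± 0.13.

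Mitochondrial genes rose by less. In the tricarboxylic acid cycle 14 of 24 were higher and 3 lower, and in the nuclear-encoded respiratory chain 15 of 28 were higher and 3 lower; both medians were 0.29. With RLE scaling these became 17 and 2, and 19 and 0, and 0 or 1 respiratory chain gene was lower without any one of rES libraries 1, 2 and 3 and EpiSC libraries 2 and 3. Sucla2, a subunit of succinyl-CoA synthetase, rose by 1.13 ± 0.06, Cox5a, a subunit of complex IV, by 1.34 ± 0.07 and Atp5g1, a subunit of ATP synthase, by 1.21 ± 0.09 on the log2 scale. The mitochondrial isocitrate dehydrogenase Idh2 rose from a mean of 42.4 to 79.9 CPM per kb of exon. The cycle list also holds Idh1, the cytosolic isocitrate dehydrogenase, which is not a mitochondrial enzyme and rose by 1.39 ± 0.08 on the log2 scale.

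Serine and one-carbon genes were evenly split, 8 of 20 higher and 8 lower. The enzymes of serine synthesis fell together: Phgdh from 573, 575 and 579.7 CPM to 223, 224 and 229 CPM, Psat1 by 1.30 ± 0.08 and Psph by 1.93 ± 0.10. Mthfd2, a mitochondrial folate enzyme, fell by 1.46 ± 0.07. The genes that rose most were those of threonine, betaine and choline given above (Tdh, Bhmt and Dmgdh). In the integrated stress response 8 of 10 genes fell and 1 rose. Atf4, its central factor, went from 556, 565 and 620.4 CPM to 184, 192 and 201 CPM and Slc7a11, the cystine importer, from 62.1, 61.0 and 47.8 CPM to 4.0, 2.77 and 4.21 CPM, while Asns, the asparagine synthetase, rose from 675, 664 and 651 CPM to 1112, 1116 and 1108 CPM.

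Epithelial genes fell in 8 of 12 cases and rose in 3. Esrp1, a splicing factor of epithelia, was at 97.0, 94.2 and 97.5 CPM in EpiSC and 0.763, 0.726 and 0.521 CPM in rES (log2 -7.17 ± 0.18, adjusted p = 6.25e-16), and Krt18, a simple epithelial keratin, went from 133, 127 and 129 CPM to 1.80, 1.60 and 1.62 CPM. Krt18 had passed through 1522 ± 55.8 CPM (SD, n = 3) at D5. Cdh1, E-cadherin, rose from 617, 614 and 647 CPM to 1072, 1088 and 1096 CPM. Of the mesenchymal genes 3 of 10 rose and 5 fell: N-cadherin (Cdh2) fell from 108, 114 and 115 CPM to 6.83, 5.56 and 5.66 CPM, and fibronectin (Fn1) rose from 212, 201 and 278 CPM to 2669, 2573 and 2581 CPM. Fn1 was among the 6 genes with the largest gain in CPM.

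Markers of other cell types were looked at because both ends of the conversion could hold some of these cells. In bulk libraries fewer cells of a type and less RNA per cell cannot be told apart. The summed trophoblast markers were at 12 to 17.8 CPM in EpiSC and 17.6 to 19.7 CPM in rES, with 3 of 9 higher and 2 lower, or 5 higher without EpiSC library 3; Cdx2 was at 2.78, 2.14 and 3.46 CPM in rES with no count in EpiSC. Primitive endoderm markers summed to 13.0 to 15.1 CPM in EpiSC and 92.9 to 101 CPM in rES, with 5 of 9 higher and 1 lower. None was lower with RLE scaling, with DESeq2, with the 2 groups fitted alone, or without rES library 2 or EpiSC library 1. Most of the sum in rES was Lama1, a laminin chain, which rose from 4.70, 5.88 and 6.82 CPM to 73.1, 75.6 and 80.2 CPM. Gata6 and Gata4, which define that lineage, were at 6.21, 6.33 and 6.37 CPM and at 2.76, 2.19 and 2.54 CPM in rES. Mesoderm and definitive endoderm markers summed to 2.79 to 3.63 CPM in EpiSC and 12.6 to 14.2 CPM in rES, with 3 of 8 higher and 1 lower. Without rES library 1 or with the 2 groups fitted alone 2 were lower, and with counts divided by 4 none was lower. Neural markers summed to 466 to 555 CPM in EpiSC and 157 to 166 CPM in rES, with 3 of 8 lower and none higher. With the 2 groups fitted alone 4 neural markers were lower and 1 was higher. Nes was the largest part of the EpiSC sum and fell from a mean of 54.4 to 2.94 CPM per kb of exon. Tubb3 held most of the sum in rES and changed little, with means of 72.0 CPM per kb in EpiSC and 73.7 in rES. Pax6 was at 2.65, 1.93 and 1.33 CPM in rES, with means of 0.138 CPM per kb in EpiSC and 0.169 in rES. Between the ends the trophoblast sum had a mean of 1283 CPM at D3 and the fibroblast sum 1618 CPM at D8, above both ends, whereas the neural sum was 212 CPM at D3, 52.1 CPM at D5 and 40.0 CPM at D8, below EpiSC at each time. The part of such cells in the differences above was not tested.

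Fibroblast markers, which feeder cells would bring, summed to 42.1 to 60.2 CPM in EpiSC and 22.7 to 24.9 CPM in rES, with 9 of 11 lower and 2 higher. The count of higher genes was 1 without any one of rES libraries 1, 2 and 3 and EpiSC libraries 2 and 3. It was also 1 without the filter, with the 2 groups fitted alone, with the replicate number as a block and with counts divided by 4. Col1a2, a collagen chain, was at 13.3, 13.0 and 21.8 CPM in EpiSC and 1.38, 1.11 and 1.55 CPM in rES, Col3a1 at 1.99, 2.65 and 2.57 CPM and 0.111, 0.115 and 0.122 CPM, and Dcn had no count in rES. Pdgfrb, a receptor of PDGF, went the other way, from 1.28, 1.28 and 0.997 CPM to 11.5, 14.5 and 11.4 CPM (log2 3.39 ± 0.17), and its mean of 12.4 CPM was the largest part of the summed mean of 23.5 CPM in rES. Their part in the differences between EpiSC and rES was not tested.

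The end point of the conversion was then set beside the reference ESC, which asks how far the converted cells differ from established naive cells. This comparison shares the rES libraries with the one above. Of 17545 genes 5877 (33.5%) were called, 2736 (15.6%) higher and 3141 (17.9%) lower in rES, and libraries did not overlap for 9421 genes (53.7%). With RLE scaling 3103 were higher and 2835 lower, so here too the larger direction depended on the scaling. With the 2 groups fitted alone 7848 of 15167 genes were called, so a gene that did not pass is not shown to be equal. In the fit of all 18 libraries, from which the counts below come, fewer genes were called and at least 2-fold different, 776 higher and 730 lower. Of the naive factors 11 of 13 did not pass; Gbx2 was higher in rES by 1.04 and Nanog lower by 0.43 on the log2 scale, with 829.6 ± 5.11 CPM (SD, n = 3) in rES and 1114 ± 24.7 CPM in ESC. Nanog lies on chromosome 6, over whose genes the median difference was -0.35, and the part of that shift in its difference was not tested. The primed genes had a median log2 difference of 0.18, with 4 of 15 higher and 2 lower than ESC. Among these Dnmt3b remained at 138 ± 4.12 CPM in rES against 71.5 ± 2.12 CPM in ESC (log2 0.95, adjusted p = 3.45e-07).

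The germline list ended above ESC: 10 of 20 genes were higher in rES, none was lower and the median log2 difference was 0.73, beside 0.00 for all genes. Dazl was at 739 ± 19.3 CPM (SD, n = 3) in rES and 292 ± 31.8 CPM in ESC (log2 1.34, adjusted p = 0.000758), and Tex101, a surface protein of germ cells, was among the 8 genes with the largest differences above ESC. Dppa3 was at 76.6 ± 2.28 CPM in rES and 18.9 ± 1.74 CPM in ESC. Sox2 and Cpt1a also ended above the reference. Sox2 was at 572 ± 4.82 CPM against 279 ± 29.0 CPM (log2 1.03, adjusted p = 0.00628), and Cpt1a at 299.8 ± 11.7 CPM against 192 ± 3.11 CPM (log2 0.64 ± 0.14, adjusted p = 0.000121). Axin2 and Sp5 were above ESC too, by 0.78 and 1.57 on the log2 scale.

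Several groups ended below ESC. Of the cholesterol genes 15 of 19 were lower in rES than in ESC and 1 was higher, and of the ERK feedback genes 8 of 14 were lower and 2 higher. Spry4 was at 0.397, 0.132 and 0.230 CPM in rES and 10, 12.8 and 12.1 CPM in ESC (log2 -5.51 ± 0.22, adjusted p = 2.27e-11), and Egr1 at a mean of 8.95 CPM in ESC, against less than 1 CPM in each rES library. Ldha was also lower, at 216 ± 4.09 CPM in rES and 447 ± 5.07 CPM in ESC (SD, n = 3; log2 -1.05, adjusted p = 4.14e-08).

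The genes furthest above ESC were Magea8, Ptprtos, Tuba3b, Pdzrn4, Atp12a, Scml2, Efhc2 and Tex101. Magea8, a cancer-testis antigen gene, had no count in EpiSC and was at 16.8, 14.6 and 15.3 CPM in rES and 1.57, 1.39 and 1.44 CPM in ESC. Scml2, a polycomb protein of the germline, was at 31.1, 30.3 and 29.5 CPM in rES and 5.10, 4.55 and 5.28 CPM in ESC. Tuba3b has near-identical copies and Ptprtos lies antisense to another gene, so their counts are uncertain. Those furthest below ESC were Lox, Col3a1, Spry4, Thbs1, Col1a1, Col1a2, Akr1b3 and Sgce. Lox, which crosslinks collagen, had no count in rES and was at 14.3, 17.5 and 13.6 CPM in ESC. Thbs1, a matrix glycoprotein, was at 134, 108 and 132 CPM in EpiSC, 0.620, 0.742 and 0.444 CPM in rES and 15.1, 20.3 and 16.7 CPM in ESC, so rES lay below both.

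Fibroblast markers were also lower in rES than in ESC. Col1a1, Col1a2 and Col3a1 are members of this list and were among the genes furthest below ESC, so the list is not a separate observation from them. Their summed level was 142 to 188 CPM in ESC and 22.7 to 24.9 CPM in rES, 8 of 11 were lower in rES and none was higher, and Col1a1 was at 68.6, 95.8 and 73.4 CPM in ESC against 3.86, 1.98 and 2.92 CPM in rES. Dcn and S100a4 had no count in rES. The part of such cells in the difference between rES and ESC was not tested.

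Gene position also moved with the difference between rES and ESC. Over genes with at least 5 CPM the median log2 difference, rES minus ESC, was -0.35 on chromosome 6, -0.44 on chromosome 8 and -0.35 on chromosome 18, against -0.02 over all 11064 genes. On chromosome 8, 397 of 609 genes were lower in rES and 35 higher. Between rES and EpiSC the same chromosomes had medians of -0.06, -0.10 and -0.07 beside -0.13 over all genes. In that comparison chromosome X was lowest, with a median of -0.37 and 117 of 395 genes higher and 207 lower in rES, and chromosome 16 was highest, with 0.13 and 151 of 344 higher and 119 lower. Without the genes of chromosomes 6, 8 and 18, an alternative chosen after the data were seen, 4837 of 15354 genes were called between rES and ESC, 2604 higher and 2233 lower, so more genes were then higher than lower. The part of these chromosomes in the other differences between rES and ESC was not tested.

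**Figure D5:**
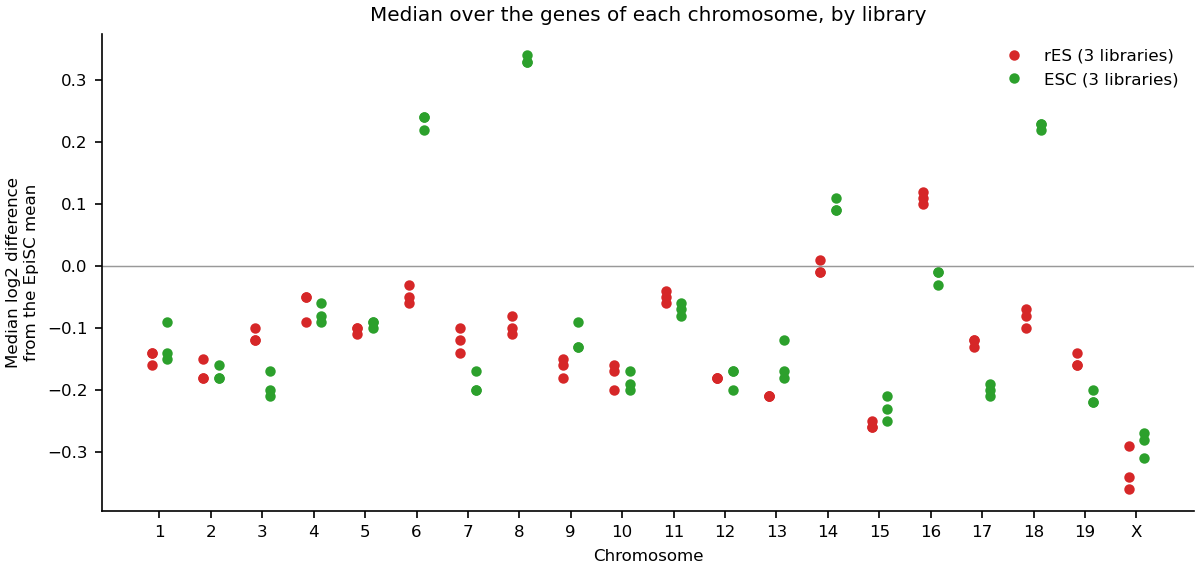
Median log2 difference from the EpiSC mean over the genes of each chromosome with at least 5 CPM (y axis), for each of 3 rES (red) and 3 ESC (green) libraries. The ESC libraries are at 0.22 to 0.24 on chromosome 6 and 0.33 to 0.34 on chromosome 8, where the rES libraries are below 0.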

How the data were processed

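RNA of 18 mouse libraries was sequenced. Per the submitters' processing notes, bcl2fastq, Trim Galore, HISAT2 and the genome build mm10 were used (versions not given). The counting tool and whether it used strand: not given in the sources used here. The authors deposited one table with a value for each symbol in each library, taken here as an estimated count. Its values are whole numbers that bunch at multiples of 4, and whether they were scaled or rounded is not given in the sources used here. A floor of 12 counts per library therefore stood for the limit of detection. Of 25239 symbols, 21120 had a count and 17545 passed edgeR's filterByExpr. Libraries held 58.4 to 102 M counts.

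All 18 libraries were fitted together with edgeR 4.0.16 (TMM, quasi-likelihood F test, 12 residual degrees of freedom, R 4.3.3), and p-values were adjusted by Benjamini-Hochberg over all genes tested. The SE was taken from the log2 difference and its F value and is approximate. The fit was tested on simulated data. Alternatives were RLE scaling, no filter, DESeq2 1.42.0, the 2 groups fitted alone, the replicate number as a block, counts divided by 4, and each library left out. Same-numbered libraries of rES and EpiSC had correlations of their deviations from -0.021 to 0.0027, so they were treated as unpaired. GENCODE vM21 matched 24366 symbols.

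The members and gene lists were chosen with earlier results of these data known. Named genes are a set of 15 pluripotency and carnitine genes, the 12 largest log2 differences and 6 largest CPM differences each way, up to 6 called members of each list, the 8 largest differences each way from ESC, the 6 genes called against ESC with the smallest difference from EpiSC, and those furthest outside the range of both EpiSC and ESC, without predicted genes. Other genes, among them list members that did not pass, were chosen after their values were seen. Some genes are not reported here, and the list counts leave them out.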

Additional observations from a re-analysis of the deposited data

How the results depend on the processing

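The number of genes called between rES and EpiSC was 12089 with RLE scaling, 12221 with DESeq2, 12164 with the 2 groups fitted alone, 12089 without the filter and 11683 with counts divided by 4, against 12175 as reported. With the replicate number as a block it was 11944, and 5621 between rES and ESC. Leaving out 1 library gave 11522 to 11643, and 4771 to 5026 for rES against ESC. More genes were lower than higher as reported, and more were higher than lower with RLE scaling, with DESeq2 (6382 and 5839) and with the 2 groups alone (6377 and 5787). The same held for rES against ESC, with 3103 and 2835 under RLE scaling, 3473 and 3128 with DESeq2, and 3932 and 3916 with the 2 groups alone, against 2736 and 3141 as reported. Among named genes Ppard, Dab2, Lum, Pparg, Cpt1b, Akr1b3, Rxra, S100a4 and Osmr lost their call between rES and EpiSC under at least 1 alternative. Calls between rES and ESC were less stable: 37 named genes lost their call and 72 gained one under at least 1 alternative. Of 76 list counts, 40 changed beyond a set margin in that comparison, and 12 did between rES and EpiSC. Between rES and EpiSC, the counts of the naive, germline and primed lists and of lower cholesterol genes were unchanged with RLE scaling. Lipid droplet genes became 6 higher and 6 lower and LIF genes 9 higher and 3 lower. Values under the floor of 0.191 CPM in rES cannot be told from 0 at this depth. The cause of these changes was not tested.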

Other observations

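Imprinted genes, which are expressed from one parental copy and whose marks can be lost in culture, were mostly lower in rES than in EpiSC: 14 of 25 fell, 4 rose and 7 did not pass, with a median log2 difference of -0.86. Meg3, a maternally expressed long RNA of the Dlk1 region, went from 66.6, 67.7 and 80.3 CPM to 1.57, 2.28 and 2.37 CPM, and Rian, from the same region, from 199, 207 and 222 CPM to 19.4, 22.4 and 16.9 CPM. Grb10, an adaptor that restrains growth, fell from 895, 842 and 759.5 CPM to 25.1, 29.2 and 30.4 CPM. Plagl1, a zinc finger factor, rose from 4.27, 3.60 and 4.59 CPM to 121, 123 and 119 CPM. Peg10, a gene of retrotransposon origin, fell from 143, 137 and 142 CPM to 18.3, 17.4 and 20.1 CPM and was at 286, 311 and 306 CPM in ESC; its mean had been 16149 CPM at D5. Mest did not pass (adjusted p = 0.740). Allele-specific expression was not measured.

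Of the G1 cyclins and CDK inhibitors, 7 of 14 rose and 4 fell. Cyclin D2 (Ccnd2) went from 51.0, 55.0 and 54.8 CPM to 1.60, 1.30 and 1.21 CPM and cyclin D3 (Ccnd3) from 97.1, 92.6 and 103 CPM to 293, 265 and 275 CPM, while cyclin D1 (Ccnd1) did not pass (adjusted p = 0.538). The inhibitors Cdkn1a (p21) and Cdkn2a rose from 37.6, 35.6 and 46.1 CPM to 277, 274 and 275 CPM and from 1.69, 1.43 and 1.46 CPM to 32.8, 37.5 and 37.2 CPM, and Cdkn1b (p27) fell by 1.45 ± 0.08 on the log2 scale.

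Y-linked genes were present in all EpiSC, rES and ESC libraries, and one of them moved apart from the rest. Kdm5d, a histone demethylase, was at 38.7, 34.7 and 40.7 CPM in EpiSC and 7.50, 6.86 and 8.15 CPM in rES (log2 -2.34 ± 0.18, adjusted p = 1.67e-09 in edgeR's test). Uty and Eif2s3y did not pass, at adjusted p = 0.608 and 0.195, and Ddx3y was higher by 0.29 ± 0.07. Xist stayed below 1 CPM in each library of both groups.

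Akr1b3, an aldose reductase, differed within groups: it was at 70.8, 71.6 and 6.07 CPM in EpiSC and 8.72, 10.6 and 4.26 CPM in rES, and its call was lost without any one of rES libraries 1 and 3 and EpiSC libraries 1 and 2, with adjusted p from 0.0553 to 0.0828.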
